A study of Mus musculus with 4 samples.

Results

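The two-cell-like state genes examined here are the 6 Zscan4 genes Zscan4a to Zscan4f, Zfp352, Tcstv1 and Tcstv3, taken by their gene symbols. Of these 9 genes, 8 were among the 24026 genes listed, and Zscan4e was not listed. Their expression was measured in F123-ESCs, a male mouse embryonic stem cell line from an S129 mother and a CAST father. All 4 libraries, replicates 1 to 4, came from untreated cells of this 1 line, which had been grown on feeder fibroblasts, passaged at least 2 times without feeders and harvested about 48 h after plating. The polyA RNA was sequenced with paired reads of 150 bp. Each gene has an RPKM (reads per kilobase of transcript, scaled to the sequencing depth) for the S129 and for the CAST allele of each library, made from reads that cover a SNP between the strains. There is 1 group of cells and no second condition, so the comparisons are between genes, between libraries and between alleles. Between genes, an RPKM of this kind also depends on how many SNPs the transcript holds, which was not examined. Nothing states whether the libraries came from separate cultures, and the p-values therefore measure only the spread between these libraries.

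A small part of mouse ESCs in culture enters, for a short time, a state that resembles the blastomeres of the two-cell embryo. In this state the homeobox transcription factor DUX switches on genes of early zygotic genome activation, among them the Zscan4 cluster, Zfp352 and the Tcstv genes. Genes of the Zscan4 cluster encode SCAN-domain zinc finger proteins that are linked to telomere elongation and genome stability in ESCs, although Zscan4a is annotated as a pseudogene. Zfp352 encodes a zinc finger protein of the early embryo. Tcstv1 and Tcstv3 belong to a family of small genes named after two-cell-stage variable transcripts. The Dux locus is kept silent at the nucleolus by nucleolin and the co-repressor TRIM28, while DPPA2 and DPPA4 act upstream of Dux as activators.

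Zscan4d had the most allele-assigned reads of the listed genes. Zscan4c, a near-identical copy, was listed at 0 in every library, a value that is uncertain for the reasons given below. The upstream regions of both and of Zfp352 show how alike or unlike these genes are before their start. They were read from RefSeq on the GRCm38.p6 build, 5′ to 3′ on the strand of the gene, and end at the annotated start or, for Zscan4d, at the start of the gene in GENCODE M21. Zscan4d lies at chr7:11166160-11166398 (minus strand), Zscan4c at chr7:11005495-11005744 (plus strand) and Zfp352 at chr4:90218570-90218819 (plus strand). Capitals mark GATTNAAT, letters that are part of the known DUX site, and TATAAA, both searched on both strands.
Zscan4d: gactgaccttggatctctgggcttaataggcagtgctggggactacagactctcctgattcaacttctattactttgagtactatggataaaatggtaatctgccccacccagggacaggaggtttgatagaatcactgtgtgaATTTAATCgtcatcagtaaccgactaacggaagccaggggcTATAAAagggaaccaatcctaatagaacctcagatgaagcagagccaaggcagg
Zscan4c: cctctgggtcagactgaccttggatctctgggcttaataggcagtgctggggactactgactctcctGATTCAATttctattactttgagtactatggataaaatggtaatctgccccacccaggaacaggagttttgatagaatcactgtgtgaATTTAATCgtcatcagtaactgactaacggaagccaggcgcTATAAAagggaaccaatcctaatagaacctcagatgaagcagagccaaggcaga
Zfp352: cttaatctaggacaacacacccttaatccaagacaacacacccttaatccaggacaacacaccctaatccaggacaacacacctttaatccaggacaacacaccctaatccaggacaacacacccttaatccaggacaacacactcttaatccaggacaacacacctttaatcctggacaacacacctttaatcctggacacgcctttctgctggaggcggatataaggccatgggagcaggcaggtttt

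RefSeq held an upstream region for 5 of the 9 genes, Zfp352 and Zscan4b, Zscan4c, Zscan4d and Zscan4f. All 4 Zscan4 regions held GATTNAAT on the reverse strand, printed as ATTTAATC, and in each of them it began 41 bases before TATAAA. GATTCAAT on the forward strand was found in Zscan4c and Zscan4f, and not in Zscan4b and Zscan4d. Of 32851 upstream regions of 250 bases in RefSeq, 1.81% held GATTNAAT, 12.4% held TATAAA and 0.417% held both. The Zscan4 regions were 94.7% (Zscan4b and Zscan4c) to 99.6% (Zscan4c and Zscan4f) identical, so they do not count as separate instances of the motifs. The Zfp352 region held neither motif and consisted mostly of a short repeat, with 9 copies of GACAACACAC. These letters were found at least once in 5 of the 32851 regions, and as many as 9 times in this region only. A match describes the letters of the region and not the binding of a factor.

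The depth was 56627973, 50284963, 48178423 and 34120416 allele-assigned reads in replicates 1 to 4, and 1 read on a transcript of 1000 bp stood for 0.0348 to 0.0598 RPKM over the 8 columns. Whole reads were recovered from the RPKM values of 99.5% of the 20243 genes above 0. All 10 pluripotency markers had at least 1 RPKM, led by Dppa5a with 7111, Tfcp2l1 with 583 and Zfp42 with 512 RPKM. Of 10 markers of feeder fibroblasts, 8 also had at least 1 RPKM, led by Acta2 with 340, Col1a2 with 166 and Tagln with 101 RPKM. The lowest were Thy1 with 1.57, Dcn with 0.659 and Lum with 0.0462 RPKM. The S129 share of reads was 50.3% for Acta2, 55.3% for Col1a2 and 50.5% for Tagln. Over the list it ran from 41.8% for Postn to 79.9% for Thy1. Whether these reads came from feeders or from the F123-ESCs was not tested. The feeder list summed to 632, 717, 745 and 685 RPKM in replicates 1 to 4. Among 7 primitive endoderm markers, the highest were Dab2 with 44.2, Pdgfra with 3.31 and Gata6 with 1.40 RPKM.

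Zscan4d had the highest listed level of the 8 genes. As the mean of both alleles it had 2.51, 2.44, 2.64 and 2.50 RPKM in replicates 1 to 4, or 2.52 ± 0.085 RPKM (SD, n = 4 libraries), from 1095 reads in all. The 4 libraries lay close together, with a coefficient of variation of 3.36%, and the gene stood at percentile 59.1 of all genes listed, whose median was 0.975 RPKM. Zscan4d (ENSMUSG00000090714) lies on chromosome 7 at 11161374 to 11166159 in mm10, on the minus strand. It made up 75.2% of the summed level of the 8 genes and 79.2% of their reads.

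Zfp352 (ENSMUSG00000070902; chromosome 4, 90218820 to 90225702, plus strand) followed with 0.335, 0.404, 0.313 and 0.322 RPKM in replicates 1 to 4. Its mean was 0.343 ± 0.041 RPKM (SD, n = 4), from 148 reads. No library of Zfp352 came near those of Zscan4d, and within libraries Zscan4d was 7.44 ± 1.01 times higher (SD, n = 4; higher in 4 of 4). Tcstv3 (ENSMUSG00000095821; chromosome 13, 120316878 to 120318178, plus strand) had 0.223, 0.356, 0.236 and 0.151 RPKM, with a mean of 0.242 ± 0.085 RPKM (SD, n = 4). This short transcript of 779 bp had only 10, 14, 9 and 4 reads in the 4 libraries. The 8 S129 reads of replicate 2, for example, had an exact 95% Poisson interval of 0.173 to 0.788 RPKM. Zscan4a (ENSMUSG00000110097; chromosome 7, 10794242 to 10799057, minus strand), which GENCODE M21 lists as an unprocessed pseudogene, had 0.203, 0.219, 0.228 and 0.286 RPKM and a mean of 0.234 ± 0.036 RPKM (SD, n = 4), from 98 reads. The ranges of Zfp352 and Tcstv3 overlapped, as did those of Tcstv3 and Zscan4a, so the order of these neighbours was not larger than their spread. Zfp352 was higher than Tcstv3 in 4 of 4 libraries, and Tcstv3 was higher than Zscan4a in 3 of 4.

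The other 4 genes were at or near 0. Zscan4f (ENSMUSG00000070828; chromosome 7, 11397915 to 11402318, plus strand) had 3 reads, all on the S129 allele of replicate 2, where they stood for 0.0639 RPKM with an exact 95% Poisson interval of 0.0132 to 0.187 RPKM. Tcstv1 (ENSMUSG00000096284; chromosome 13, 119893388 to 119894785, minus strand) had 1 read, on the S129 allele of replicate 2. Zscan4b (ENSMUSG00000095339; chromosome 7, 10900740 to 10905050, minus strand) and Zscan4c (ENSMUSG00000054272; chromosome 7, 11005745 to 11010547, plus strand) were listed at 0 in all 8 columns. At this depth, a count of 0 allowed up to 0.0586 to 0.101 RPKM per allele and library for Zscan4b and 0.0458 to 0.0788 RPKM for Zscan4c, which is the value of 3 reads. All such limits and intervals cover counting error only, because reads copied by PCR and carrying no molecular identifier do not stand for separate molecules. They concern only reads that cover a SNP. The number of SNPs in each transcript was not examined, so the limits set no bound on the RNA itself. Zscan4a stood above Zscan4f without overlap, while the values of Zscan4f, Tcstv1, Zscan4b and Zscan4c overlapped. Tcstv1 and Tcstv3 are 92.3% identical as transcripts, and 1 and 37 reads were listed for them.

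**Figure D1:**
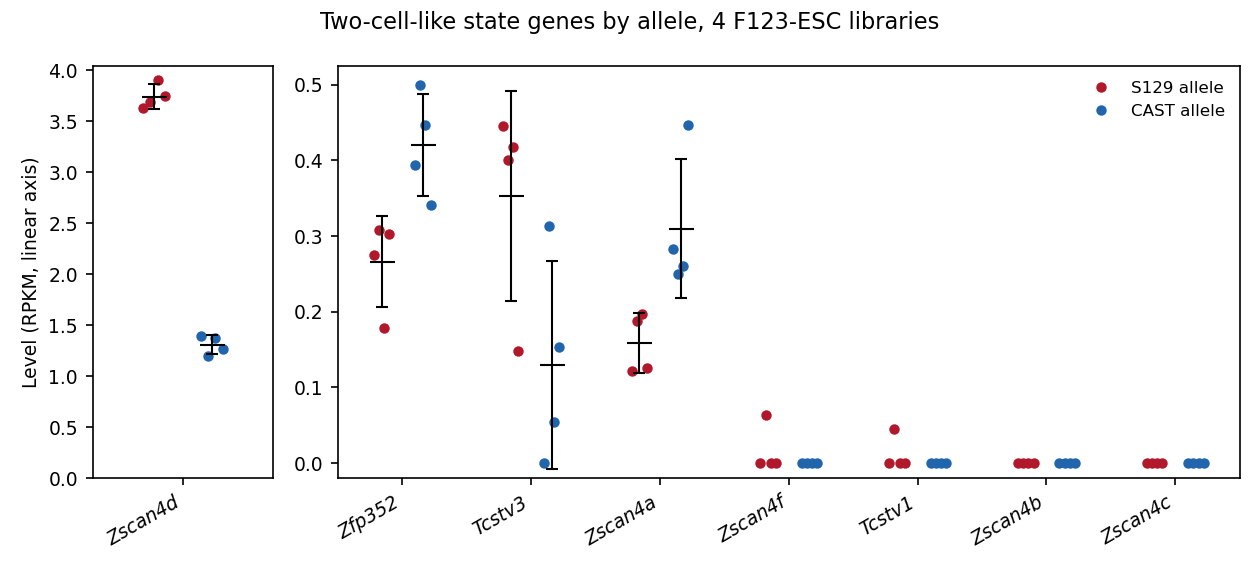
RPKM of the 8 listed genes (linear axes, with a separate axis for Zscan4d). Points are replicates 1 to 4 from left to right, red for the S129 and blue for the CAST allele, and black marks are the mean and SD over 4 libraries, drawn for the 4 genes with reads in every library. Zscan4d lies above the others on both alleles, at 3.74 ± 0.12 RPKM on S129 and 1.31 ± 0.093 RPKM on CAST, and Zscan4b and Zscan4c are listed at 0 throughout.

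Not all of these genes can be read separately, because the Zscan4 transcripts are 94.1% (Zscan4d and Zscan4e) to 97.8% (Zscan4a and Zscan4c) identical. In GENCODE M21, 13.0% of the 150-base windows of the Zscan4d transcript were also found in the transcript of another gene, which leaves 1847 of 2123 windows that belong to Zscan4d alone. The share was 25.1% for Zscan4a, 61.0% for Zscan4c, 68.4% for Zscan4b, 77.4% for Zscan4e and 86.2% for Zscan4f. Zscan4b with 515 windows of its own and Zscan4c, which has more, had no read, and Zscan4f with 232 windows of its own had 3. The Zscan4 genes with fewer windows of their own were thus the ones listed at or near 0, and whether reads shared by several copies were counted is not given in the sources used here. The part of this in the low values of Zscan4b, Zscan4c and Zscan4f was not tested, and these 3 values are uncertain. For Zscan4d, 1.49% of windows of 260 bases were shared with another gene. About 260 bp is the average size of the library product with its adapters, so the transcript part of a fragment is shorter. Zfp352, Tcstv1 and Tcstv3 shared no exact window of 150 bases with any other annotated gene. Inexact matches and copies without annotation were not searched.

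**Figure D2:**
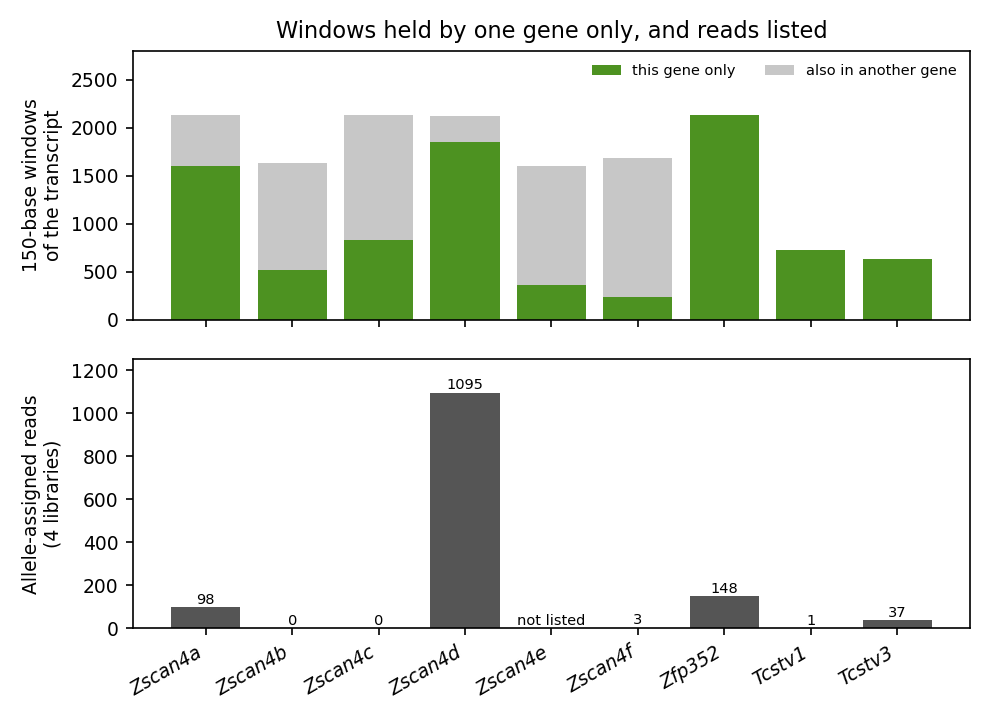
Number of 150-base windows of each transcript, divided into windows found in this gene only (green) and windows also found in another annotated gene (grey), above the number of allele-assigned reads summed over 4 libraries. Zscan4d has 1847 windows of its own and 1095 reads, while Zscan4f has 232 windows of its own and 3 reads. Zscan4e was not listed.

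The S129 and CAST alleles were compared to ask whether both copies of these genes contribute equally. For all genes tested, the difference of log2(RPKM+0.1) between the alleles was computed within each library and tested by limma, and genes were called at an adjusted p under 0.05. This background is wide, since 54.8% of 16296 genes were called, 28.0% with S129 higher and 26.8% with CAST higher. The order turns on the autosomes, where all 8 genes lie, with 25.4% of 15704 genes called for S129 and 27.8% for CAST; of the 592 genes on other chromosomes, 577 were called for S129. Of the 8 two-cell-like genes, 4 passed the filter of at least 0.1 RPKM and 2 of them were called, 1 in each direction. The alleles did not overlap over the libraries in 3 of the 4, against 42.5% of all genes tested.

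Zscan4d had more reads assigned to S129. The S129 allele had 3.63, 3.69, 3.91 and 3.74 RPKM and the CAST allele 1.39, 1.20, 1.38 and 1.26 RPKM in replicates 1 to 4. The alleles stood far apart in every library, with an S129 level 2.87 ± 0.20 times that of CAST (SD, n = 4). The log2 difference was 1.45 (S129 minus CAST, with a standard error of 0.051, adjusted p = 0.000118 by limma after Benjamini-Hochberg adjustment, with S129 above CAST in 4 of 4 libraries). In reads, S129 accounted for 818 of 1095, or 74.7% (exact 95% Clopper-Pearson interval 72.0 to 77.3%), and for 72.9%, 76.2%, 74.7% and 75.5% in the 4 libraries. The median S129 share of protein-coding genes with at least 400 reads was 50.5% on chromosome 7, and 2.25% of 10946 such autosomal genes had a share at or above that of Zscan4d.

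Zfp352 had more reads assigned to CAST. The S129 allele had 0.275, 0.308, 0.179 and 0.303 RPKM and the CAST allele 0.394, 0.50, 0.446 and 0.342 RPKM in replicates 1 to 4. The alleles did not overlap, but they came close in replicate 4, which had the fewest reads. The log2 difference was -0.51 (standard error 0.15, adjusted p = 0.0465 from limma, CAST higher in 4 of 4 libraries), and the S129 share was 39.2% of 148 reads (exact 95% interval 31.3 to 47.5%). The log2 difference became -0.17 with a pseudocount of 1 RPKM. This call lies at the threshold, with an adjusted p from limma of 0.023 to 0.137 over the alternatives computed, and it was lost when replicate 1, 2 or 3 was left out (adjusted p from limma of 0.108, 0.137 and 0.0772).

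Zscan4a had lower values from S129, at 0.122, 0.188, 0.197 and 0.126 RPKM, than from CAST, at 0.284, 0.250, 0.260 and 0.446 RPKM. The alleles did not overlap, and the log2 difference of -0.66 (standard error 0.20, CAST higher in 4 of 4 libraries) missed the threshold with an adjusted p of 0.0538 from limma, or passed it with 0.0141 without the replicate block, when the alleles were not paired by library. The S129 share was 35.7% of 98 reads (exact 95% interval 26.3 to 46.0%). Zscan4a and Zscan4d lie in the same cluster on chromosome 7, and the share of Zscan4d, 72.9 to 76.2% over the libraries, lay above that of Zscan4a, 22.7 to 44.0%, in 4 of 4 libraries. With 4 libraries an exact two-sided sign-flip test of this difference cannot go below p = 0.13. The share of reads on windows that the copies have in common, and its part in these allelic values, was not tested.

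Tcstv3 had 10, 8, 8 and 2 reads from S129 and 0, 6, 1 and 2 reads from CAST in replicates 1 to 4. The alleles were apart in replicates 1 and 3 and close or equal in replicates 2 and 4. The log2 difference of 1.11 (standard error 0.50, adjusted p = 0.132 from limma, S129 higher in 3 of 4 libraries) did not exceed the spread of the libraries, although the S129 share over all 37 reads was 75.7% (exact 95% interval 58.8 to 88.2%). Its size was not stable, with 0.66 without replicate 1, 0.26 with a pseudocount of 1 RPKM and 2.13 with a pseudocount of 0.01 RPKM. Zscan4f and Tcstv1 with 3 and 1 reads allowed no comparison of the alleles.

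**Figure D3:**
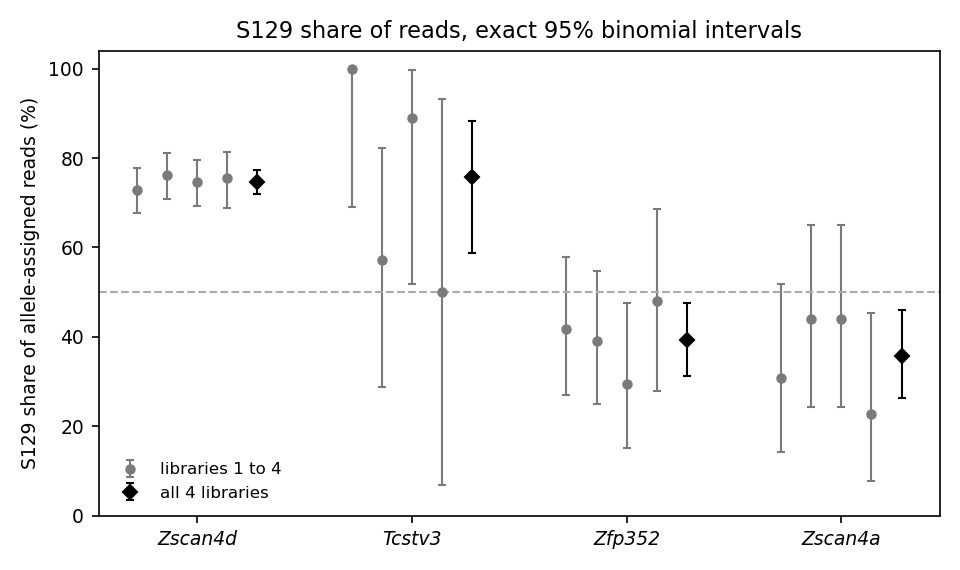
S129 share of the allele-assigned reads (in percent) of the 4 genes with reads in every library. Grey points are replicates 1 to 4, the black diamond is all libraries together, bars are exact 95% binomial intervals and the dashed line marks equal shares. Zscan4d lies at 72.9 to 76.2% in the 4 libraries, Zscan4a and Zfp352 lie under the line in each library, and Tcstv3 spreads from 50.0 to 100% with wide intervals.

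Over the libraries, the level of Zscan4d and the sum of the 8 genes varied little. The coefficient of variation was 3.36% for Zscan4d, 12.05% for Zfp352, 15.5% for Zscan4a and 35.3% for Tcstv3, and Zscan4f and Tcstv1 had reads in 1 library only. The sum of the 8 genes was 3.27, 3.48, 3.42 and 3.26 RPKM in replicates 1 to 4, or 3.36 ± 0.11 RPKM (SD, n = 4). Replicates 2 and 3, with the higher sums, also had the higher summed feeder lists. These were 717 and 745 RPKM against 632 and 685 RPKM in replicates 1 and 4. Of the other lists, the summed activators (529 and 510 against 480 and 470 RPKM), repressors and primitive endoderm markers were likewise higher in replicates 2 and 3. The sums of the pluripotency markers and of all genes were lower there. Other two-cell-like genes fell from 13.5 RPKM in replicate 1 to 12.1 RPKM in replicate 4. The part of feeder RNA in these values was not tested. A chi-square test of the reads over the 4 libraries called 60.4% of the 16956 genes with at least 20 reads at an adjusted p under 0.05, with a median chi-square per degree of freedom of 4.34. Of the 8 two-cell-like genes, 0 of 4 tested were called, and 0 of 4 had an unadjusted p under 0.05. Among the other two-cell-like genes described below, Gm12794, Gm2022, Usp17ld, Usp17lc, Usp17le and Gm13119 were called. Their adjusted p from the chi-square test was 0.00404 to 0.014, and the rest of those tested were not called. Without replicate 4, Usp17ld was the only one of them still called. The reads of Zscan4d, 325, 282, 292 and 196 in replicates 1 to 4, followed the depth of the libraries, with a chi-square per degree of freedom of 0.312. It was 0.545 for Zfp352, 0.493 for Zscan4a and 0.986 for Tcstv3. Depth limits this comparison for Zfp352, Zscan4a and Tcstv3, since 20.9% of genes with 20 to 200 reads were called but 48.1% of genes with 500 to 2000 reads, the class that holds Zscan4d. In bulk RNA, a change in the number of cells in the two-cell-like state and a change in RNA per cell cannot be told apart, and a mean of this kind does not show in how many cells the genes were on.

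The genes whose 4 library values were most like the mean profile of the expressed two-cell-like genes were Zfp706, Plekho2, Btbd19, Mtfr1l and Spint1. Likeness was the root mean square difference of centred log2(RPKM+0.1) over 4 libraries, and it was 0.00387 for Zfp706 and 0.00702 for Spint1, with a median of 0.117 over 16292 genes. The profile itself was nearly flat, from -0.031 in replicate 4 to 0.030 in replicate 2 on the log2 scale, so that 39.8% of all genes lay within 0.1 of it. Of the other two-cell-like genes, the nearest was Trim43c, an embryonic Trim gene, at place 6440.

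Most of the nearest listed genes were at or near 0. The Zscan4 cluster spans 10794242 to 11402318 on chromosome 7, and the nearest listed genes were the vomeronasal receptor genes Vmn1r71, 39.9 kb before it with 0.00204 RPKM, and Vmn1r72, 262 kb after it with 0.00208 RPKM. Beside Zfp352, Dmrta1, a gene of the DMRT transcription factor family, lay 524 kb before it with 0.767 ± 0.39 RPKM (SD, n = 4) and an S129 share of 52.2% of 92 reads, and Gm12633 lay 134 kb after it with 0.0123 RPKM. On chromosome 13, AF067063 lay 63.2 kb before Tcstv1 and was listed at 0, no listed gene followed Tcstv3, and 7 other listed genes lay between Tcstv1 and Tcstv3, among them Gm21818 with 0.678 RPKM. Of the nearest genes outside the 3 loci, Dmrta1 was the only one above 0.1 RPKM.

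The wider set of two-cell-like genes was as low. Of 37 other genes of this state, 32 were listed, 9 of them at 0, 17 with at least 0.1 RPKM and 5 with at least 1 RPKM. Their median was 0.114 RPKM, beside 0.121 RPKM for the 8 genes above and 0.975 RPKM over all genes, and their sum was 12.7 ± 0.61 RPKM (SD, n = 4). Duxf3 and Dux, the symbols of the gene for DUX itself, were not listed. The 10 highest were Gm12794 with 3.10 ± 0.53 RPKM, Gm8300 with 1.79 ± 0.19, Usp17le with 1.41 ± 0.28, Gm2022 with 1.20 ± 0.59, Usp17lb with 1.17 ± 0.10, Gm21818 with 0.678 ± 0.19, Usp17la with 0.517 ± 0.081, B020004J07Rik with 0.418 ± 0.11, Usp17lc with 0.411 ± 0.13 and Trim43c with 0.358 ± 0.034 RPKM (SD, n = 4 each). The Usp17l genes encode deubiquitinating enzymes. Thus Gm12794 was the only one of the listed two-cell-like genes with a mean above that of Zscan4d.

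Of these other genes, 17 could be tested between the alleles by limma. There was 1 called with S129 higher and 6 with CAST higher, against 28.0% and 26.8% of all genes. The 17 genes lie on autosomes, where 25.4% and 27.8% of genes were called. The calls of Gm8300, Gm2022, B020004J07Rik and Gm12794 held in every alternative that tested them. The counts of 1 and 6 changed with each library left out. Without replicate 1 they were 1 and 5, since Usp17lc lost its call. Without replicate 2 they were 2 and 3, since Usp17le, Usp17lc and Gm13119 lost their call and Trim43b gained one for S129, and without replicate 3 they were 1 and 4, without Usp17lc and Usp17le. Without replicate 4 they were 2 and 7, with Gm21818 gained for S129, Usp17la and Trim43a gained for CAST and Usp17le lost. Without the replicate block they were also 1 and 4, and with a pseudocount of 0.01 RPKM 1 and 4, without Gm13119 and Usp17lc. Their median log2 difference was 0.006, beside 0.001 over all genes tested. The call for S129 was Gm8300, with a log2 difference of 1.18 (adjusted p = 0.0051 from limma). The widest differences were those of Gm2022 with -3.44 (adjusted p = 0.00101 from limma), which had 7 S129 and 97 CAST reads, and B020004J07Rik with -2.32 (adjusted p = 0.00278 from limma), with 17 S129 and 142 CAST reads. Gm12794 followed with -1.21 (adjusted p = 0.0011 from limma). Of the windows of 150 bases, 34.6% were shared with another gene for Gm12794, 19.9% for Gm2022, 2.96% for Gm8300 and 0.876% for B020004J07Rik, so that of these the value of Gm12794 is the most open to reads of another gene.

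The genes that control the state had far higher RPKM from allele-assigned reads than its targets. The part of SNP number in this difference was not tested. All 5 activators had at least 1 RPKM, with a median of 145 RPKM. Dppa4 had 166.6, Dppa2 149, Trp53, the gene of the p53 tumour suppressor, 145, Tbx3, a T-box factor, 23.0 and Nelfa, a subunit of negative elongation factor, 13.7 RPKM. Dppa2 (log2 difference 2.21, adjusted p = 2.72e-05 from limma) and Dppa4 (log2 difference 0.93, adjusted p = 0.000116 from limma) were higher on S129, and Trp53 was higher on CAST (log2 difference -0.41, adjusted p = 0.00127 from limma). Dppa2 and Dppa4 lie on chromosome 16, where the S129 share of genes had a median of 62.7% and a 95th percentile of 77.0%. Their own shares were 82.8% for Dppa2 and 66.5% for Dppa4. Of the windows of 150 bases of Dppa2, 25.6% were shared, mostly with Gm9788.

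All 17 repressors had at least 1 RPKM, with a median of 47.8 RPKM, from Pias4, a SUMO ligase, with 3.60 to Trim28 with 1310 RPKM. Ncl, the gene of nucleolin, had 91.3 ± 19 RPKM (SD, n = 4). Between the alleles, 0 of 17 were called by limma with S129 higher and 7 with CAST higher, against 28.0% and 26.8% of all genes. These 17 genes lie on autosomes, where 25.4% and 27.8% of genes were called. At an unadjusted p under 0.05 from limma, 2 had S129 higher, Chaf1b and Lin28a, with log2 differences of 0.14 and 0.11. Lin28a was called for S129 with centring on the autosomal median, with a pseudocount of 1 RPKM and with a filter at 0.5 RPKM, and Chaf1b without replicate 4. Without replicate 1, 2 or 3, the 7 became 4, since Ncl, Dnmt1 and E2f6 lost their call, and without the replicate block they became 2, Ehmt2 and Setdb1. The 7 were Trim28, Ncl, Rif1, Dnmt1, Ehmt2, Setdb1 and E2f6, and their log2 differences ran from -0.17 for Dnmt1 to -1.15 for Setdb1. The median of the list was -0.074 on the log2 scale. Setdb1, an H3K9 methyltransferase gene with an S129 share of 31.8%, lies on chromosome 3, where the median S129 share was 38.2%.

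**Figure D4:**
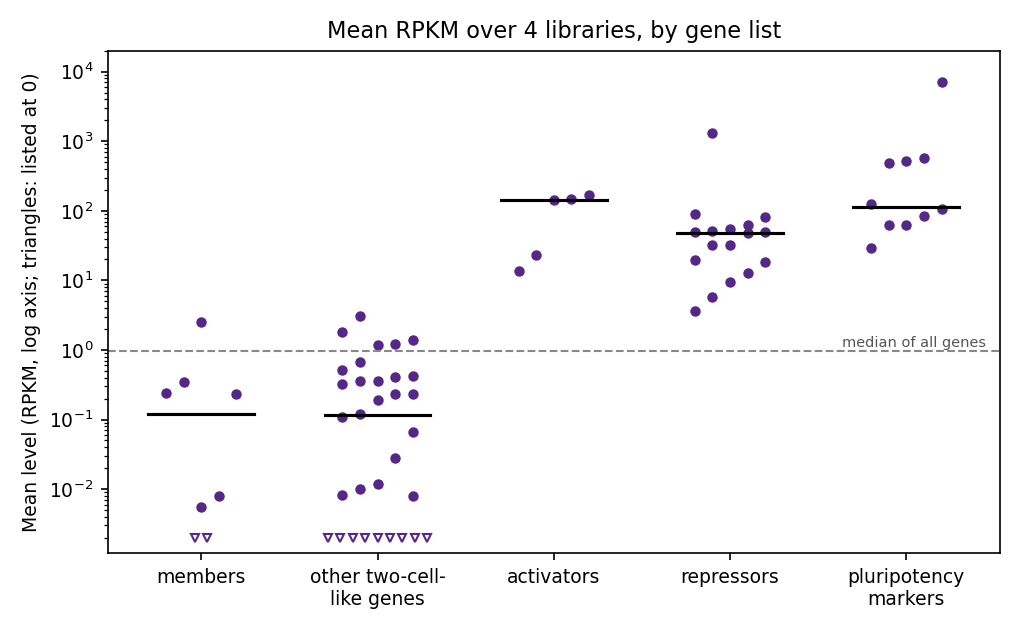
Mean RPKM over 4 libraries (log axis) of the genes of 5 lists, each point being a gene, black lines the median of a list and the dashed line the median of all genes, 0.975 RPKM. Open triangles at the bottom are genes listed at 0. The 8 two-cell-like genes and the 32 others have medians of 0.121 and 0.114 RPKM, under the line, and the activators and repressors of the state have medians of 145 and 47.8 RPKM.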

How the data were processed

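The authors filtered out ribosomal RNA reads, trimmed the remainder with Trimmomatic 0.40 (per the labels), aligned them with STAR to mm10 masked at SNPs, and assigned them to an allele with SNPsplit. The deposited values are RPKM per gene, allele and library. The authors also deposited averages and their log10, which were not used. No column belonged to another sample. The counting program, its annotation and its treatment of reads with several positions are not given in the sources used here.

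Genes were matched to GENCODE M21 by identifier (23995 of 24026). Reads were recovered from the RPKM steps within 0.02 reads, with allele totals of 16716721 to 28772352. Alleles were compared with limma 3.58.1 (R 4.3.3) on log2(RPKM+0.1) differences within libraries, for the 16296 genes averaging 0.1 RPKM or more, with Benjamini-Hochberg adjustment over all of them; differences between low values are understated on this scale. Alleles were paired because the S129 and CAST values of a number are 2 parts of the same library. Over 11946 genes, deviations of columns of one library correlated by 0.146 to 0.234, and those of different libraries by -0.187 to 0.151. The spread between libraries was tested by a chi-square test of reads against library totals. No pair of libraries agreed within sampling noise, since 1541 to 8242 genes differed between them. Shared windows were exact matches on either strand in transcripts of other annotated genes.

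The members and all gene lists were chosen with earlier results of these data known, and the motifs and the repeat unit after the sequences were seen. Named were all members, the 10 other two-cell-like genes with the highest RPKM and members of the activator and repressor lists. So were at least 3 genes of each marker list, the nearest neighbours and the 5 genes of most similar library profile. Further genes of these lists were named beside their calls or values. The recovery of reads, limma and the chi-square test were tested on simulated data. Alternatives were other pseudocounts, other filters, centring on the autosomal median, no replicate block, exon-union lengths, each allele alone, medians, other totals, a minimum of 50 reads, rescaled RPKM and each library left out in turn. Computations used Python 3.11.15, pandas 2.3.3 and scipy 1.17.1.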

Additional observations from a re-analysis of the deposited data

Results flagged for a closer look

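Of 33 quantities over the 4 libraries (levels and S129 shares of the two-cell-like genes and summed levels of the gene lists), 4 had a library that lay apart from the other 3 by Dixon's criterion at the 95% level, where chance gives about 1 in 20, or 1.65. The level of Zscan4f was 0.0319 RPKM in replicate 2 and 0 in the others, which rests on 3 reads. The level of Tcstv1 was 0.0223 RPKM in replicate 2 and 0 in the others, which rests on 1 read. A gene with reads in 1 library only always passes this criterion, so the 4 cannot be weighed against 1.65. The S129 level of Tcstv3 was 0.148 RPKM in replicate 4, from 2 reads, against 0.40 to 0.446 RPKM in replicates 1 to 3. The level of Gm12794 was 3.89 RPKM in replicate 4 against 2.77 to 2.91 RPKM in the other libraries.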

How the results depend on the processing

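Of 124 values under the alternatives, 100 kept their direction and their call, stayed within the spread or, for counts of calls, within 1.5 times. None of the 4 two-cell-like genes tested between the alleles changed direction. Among the other two-cell-like genes, Usp17la, with a log2 difference of 0.006, was called for CAST without replicate 4. The 2 two-cell-like genes called between the alleles became 1, Zscan4d, with a pseudocount of 0.01 RPKM, with a mean of at least 0.5 RPKM, with no filter and with centring on the autosomal median, and 1 to 2 when each library was left out (1 without replicate 1, 2 or 3). With at least 0.5 RPKM, Zscan4d was the only one tested. Centring moved the median of all autosomal genes by 0.017 on the log2 scale and the calls over all genes from 4558 with S129 higher and 4372 with CAST higher to 4748 and 4182. Without the replicate block, that is without the pairing of the alleles by library, 3 of the genes were called, Zscan4a with an adjusted p of 0.0141 from limma, no other call of the 8 genes changed, and of the other two-cell-like genes Usp17le and Usp17lc lost theirs. Zscan4d was called in all 10 alternatives, with a log2 difference of 1.42 to 1.49 when libraries were left out.

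Each allele alone gave other levels than the mean of both, with 3.74 RPKM for S129 and 1.31 for CAST in Zscan4d, 0.266 and 0.421 in Zfp352, 0.353 and 0.130 in Tcstv3, 0.158 and 0.310 in Zscan4a, and 4.55 and 2.17 in the sum of the genes. The sum was 3.32 to 3.39 RPKM when each library was left out. Depth limits the genes other than Zscan4d, which rest on at most 148 reads. The causes of these changes were not tested.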
